A study of Mus musculus with 36 samples.

Results

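Of 33259 circular RNAs (circRNAs) with at least 1 read in 36 samples of mouse hippocampus and frontal cortex, 29397 lay inside a gene on the same strand. Of these in-gene circles, 8260 had ends that were not both annotated exon boundaries of one gene. They are called off-boundary circles here, and the other 21137, which start on an annotated exon start and end on an annotated exon end of one gene, are called exon-boundary circles. The exon boundaries came from GENCODE M21 on GRCm38. Circles on sequences other than chromosomes and those in a ribosomal repeat on chromosome 17 were left out. Off-boundary circles made up 28.1% of the in-gene circles and held 67970 circular reads, which were 8.86% of the in-gene circular reads.

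The mice were C57BL/6 males (C57BL6/N in the study's methods), 9 to 10 weeks old, and ribosomal RNA was depleted from total RNA of each tissue before sequencing. Each tissue was collected at 6 time points of a light-dark cycle, with ZT1, ZT5 and ZT9 in the light phase and ZT13, ZT17 and ZT21 in the dark phase. There were 3 replicates per time point and 18 samples per tissue, and the labels name no mutation and no treatment in any group. In such bulk samples, fewer cells of a type and less RNA per cell cannot be told apart.

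A circRNA forms when a splice donor is joined to an acceptor upstream of it, a reaction called back-splicing. In most known circRNAs both sites are also used in the linear RNA of the same gene, and so the circle starts and ends on exon boundaries. CIRI2, the program behind these counts, accepts a junction when AG precedes the circle and GT follows it.

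Libraries that stood apart were 3 in number. Hippocampus ZT1 replicate 3 was the deepest, with 73252 circular reads, and 892 off-boundary circles (10.8%) were found only there, against 6.19% of the exon-boundary circles. Hippocampus ZT13 replicate 1 and frontal cortex ZT9 replicate 3 were the shallowest of their tissues, with 6754 and 8107 reads. The medians were 21924 reads per hippocampus sample and 20301 per frontal cortex sample. Without all 3 libraries, 7169 off-boundary circles remained, which were 26.8% of the in-gene circles and held 8.58% of the reads.

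Sequences at the ends are shown for 6 circles to make clear where they start and stop. The first 3, in Snhg11, Gm9762 and Malat1, lay inside a single exon with neither end on a boundary. The others, in Ptms and Cdc14b, kept an annotated 3′ end and began inside an exon. Bases outside the circle are in lower case and bases inside it are in capitals, 5′ to 3′ on the strand of the gene, from GENCODE M21 transcripts. Up to 15 nt on each side are given, and fewer where the exon ends earlier.
Snhg11, 5′ end, chr2:158382489-158382518, plus strand: ttgttttctctgtagGTTGCCGTGGACTCC
Snhg11, 3′ end, chr2:158383149-158383178, plus strand: GTGATGGTTCCTCAGgtactttgtaatctc
Gm9762, 5′ end, chr3:78966761-78966790, minus strand: aagagaatccacaagGAATTGAATGACCTG
Gm9762, 3′ end, chr3:78966387-78966416, minus strand: AACAGATAGAGAAAAgtacaacagaatagc
Malat1, 5′ end, chr19:5801872-5801901, minus strand: aaggtgaagaaaaagCTGTTAGAGAAGATA
Malat1, 3′ end, chr19:5801680-5801709, minus strand: GATTGAGGCCAAAAGgttggataagatata
Ptms circle of 303 nt, 5′ end, chr6:124914696-124914713, minus strand: gagGAGGAGAATGGAGCT
Ptms circle of 297 nt, 5′ end, chr6:124914690-124914713, minus strand: gaggaggagAATGGAGCTGAGGAA
Ptms, shared 3′ end, chr6:124914408-124914422, minus strand: ACTGCTGAAGAGGAG
Cdc14b, 5′ end, chr13:64248485-64248514, minus strand: tcgcggtcatcccagACTCGCGGGTCCTTC

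In Ptms the exon starts with a run of gag, and both circles begin right after an ag of that run. Over all off-boundary circles, 3032 unannotated 5′ ends could be read from exons, and AG preceded every one. Likewise GT followed all 3108 unannotated 3′ ends that could be read. The rule of CIRI2 fixes both counts, so they are no finding. In the transcripts of the host genes, AG made up 7.97% and GT 5.16% of all pairs of neighbouring bases.

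Where the sequence on both sides of both ends could be read, in 1901 circles, the bases next to one end were compared with those next to the other. The stretch that was identical across the junction had a median of 4 nt and reached at most 9 nt. It was 4 nt or longer in 1078 circles (56.7%). Among the 304 such circles found in 2 samples or more the median was 5 nt, and among the 1597 found in 1 sample it was 4 nt. The stretch was 4 nt in the Snhg11 circle, 5 nt in the Malat1 circle and 1 nt in the Gm9762 circle. No such length was computed for exon-boundary circles or for chance, and the AG and GT that CIRI2 requires are among the bases compared. The lengths are therefore only descriptive.

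Most off-boundary circles kept an annotated boundary at 1 end. This was so for 4496 of the 8260, and they held 46824 of the 67970 reads. Another 938 had neither end on a boundary and lay within one exon, with 5706 reads. The remaining 2826 had neither end on a boundary and did not lie within one exon, with 15440 reads. Entirely within one intron were 1341 circles.

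Among the 4496 circles with 1 annotated end, the 5′ end was the unannotated one in 2390 and the 3′ end in 2106. The unannotated end was rarely close to a boundary of its own kind. Here and below, 5′ ends were measured against annotated 5′ ends of exons and 3′ ends against annotated 3′ ends. It lay 1 to 3 nt away in 130 circles (2.89%), 4 to 20 nt away in 401 (8.92%) and more than 1000 nt away in 1897 (42.2%). The median distance was 198 nt for unannotated 5′ ends and 584 nt for unannotated 3′ ends. Of the 373 unannotated 5′ ends within 20 nt of a boundary, 149 (39.9%) were a multiple of 3 nt away, and 85 of them exactly 3 nt. Of the 158 such 3′ ends, 38 (24.1%) were a multiple of 3 nt away, and 7 exactly 3 nt. No test was run on these counts, since ends in one gene share a sequence.

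The annotated end was often one that exon-boundary circles used too. This held for 2310 of the 4496 circles (51.4%), which carried 64.7% of the reads of their class. Unannotated ends were used again less widely. Of 10379 such sites, 778 (7.50%) occurred in 2 off-boundary circles or more, and 1934 circles (23.4%) had one of these. The site with the most reads was a 3′ end in Gm2164 at chromosome 4, 124556045, with 1355 reads over 7 circles. In number of circles the first 5 sites were all in Snhg14, the highest with 62.

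Off-boundary circles carried few reads. The median was 2 reads over all samples, the smallest count that the tables list, against 4 reads for exon-boundary circles. In 5118 of them (62.0%) the total was 2 reads, against 40.9% of exon-boundary circles. Found in 1 sample were 6230 (75.4%), against 50.2%, and without the 3 libraries named above the shares were 74.9% and 50.1%. Only 9 off-boundary circles were found in all 36 samples, against 224 exon-boundary circles.

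Within each sample, a detected off-boundary circle had fewer reads than a detected exon-boundary circle. In the hippocampus the mean was 3.58 ± 0.20 reads (SD, n = 18) for off-boundary circles, with a lowest sample at 3.29, a median of 3.59 and a highest of 4.17. For exon-boundary circles it was 6.29 ± 0.77 reads, from 4.73 through 6.18 to 8.83. The ranges did not overlap, and the difference was -2.71 reads, negative in 18 of 18 samples. For frontal cortex samples the means were 3.57 ± 0.22 and 6.08 ± 0.53 reads (SD, n = 18), and the difference was -2.52 reads, again negative in 18 of 18 samples. The medians were 2 reads for off-boundary and 3 reads for exon-boundary circles in every sample of both tissues. The permutation test that flips signs within samples gave a two-sided p = 1e-05 in both tissues, the smallest that 100000 resamples can give. Many circles were found in several samples, so the 18 values of a tissue are not independent, and this p is only descriptive.

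Replicates shared off-boundary circles less often. Of the off-boundary circles found in a hippocampus sample, 35.8% ± 6.9 (SD, n = 18) were found in another replicate of the same time point, with a lowest sample at 22.3%, a median of 35.1% and a highest of 52.6%. For exon-boundary circles the share was 63.0% ± 7.8, from 45.4% through 62.0% to 79.2%. The ranges overlapped between samples, but within each of the 18 samples the off-boundary share was lower, by 27.2 percentage points on average (from 23.0 to 35.2; two-sided permutation p = 1e-05, the smallest possible). Frontal cortex shares were 36.7% ± 4.4 and 62.6% ± 4.9 (SD, n = 18), a mean difference of -25.9 points with the same p. Samples of one time point enter each other's value, so the 18 values are not fully independent.

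Support was also compared at equal reads in a sample, which does not equalise abundance over all samples. At exactly 2 reads in a hippocampus sample, 19.3% ± 6.6 (SD, n = 18) of off-boundary circles were found in another replicate, against 38.3% ± 10.2 of exon-boundary circles. The difference was -19.0 percentage points there and -17.8 points in frontal cortex samples, where the shares were 19.7% ± 4.6 and 37.5% ± 6.7. It was negative in 18 of 18 samples of each tissue (two-sided permutation p = 1e-05, the smallest possible). Here too the 18 values are not fully independent. With more reads the classes came closer. At 5 to 9 reads, 79.7% and 90.5% were found again in the hippocampus, and at 10 reads or more 96.1% ± 4.1 and 99.3% ± 1.0 (SD, n = 18).

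**Figure D1:**
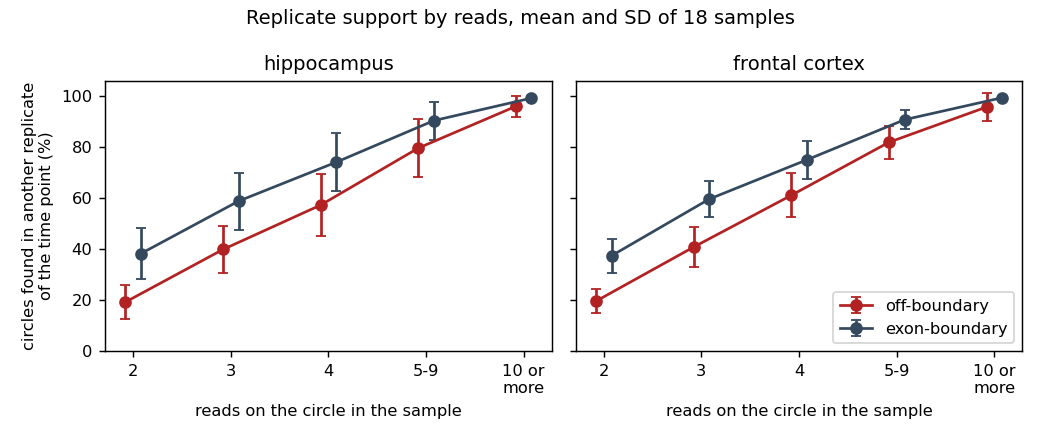
Share of circles found in another replicate of the same time point (y axis, percent) by the reads on the circle in the sample (x axis), for off-boundary circles (red) and exon-boundary circles (dark blue). Points are means and bars SD of 18 samples per tissue. The red points lie below the dark blue points in every bin, with 19.3% against 38.3% at 2 reads in the hippocampus and 96.1% against 99.3% at 10 reads or more.

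Over whole tables, 799 off-boundary circles (9.67%) were shared by 2 or 3 replicates of a time point, against 5659 exon-boundary circles (26.8%). These 799 held 45196 reads, 66.5% of the off-boundary reads. The share with such support was 13.4% for circles with 1 annotated end, 5.80% for those with neither end on a boundary outside single exons and 3.52% for those within one exon. Within one intron it was 4.25%. Circles with an unannotated 3′ end had support in 17.7% and those with an unannotated 5′ end in 9.62%.

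Off-boundary circles had a shorter median span, but also a larger share of very long circles, which was not so without Snhg14. The span, from start to end with introns included, had a median of 3519 nt with a lower quartile at 292 nt and an upper quartile at 27354 nt, against a median of 13867 nt for exon-boundary circles. Under 500 nt were 2457 off-boundary circles (29.7%), against 3.28% of exon-boundary circles. Over 100000 nt were 632 (7.65%), against 1165 exon-boundary circles (5.51%). Of the 632, 228 were in Snhg14, and without that gene the share was 5.33%. Among circles shared by replicates of a time point the medians were 9445 and 14029 nt, and 10.9% of the off-boundary circles were under 500 nt, against 3.11%. The classes of ends differed. Circles with 1 annotated end had a median span of 12056 nt, those with neither end on a boundary 1076 nt outside single exons and 176 nt within one exon. The shortest off-boundary circle spanned 135 nt and the shortest exon-boundary circle 137 nt.

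Measured within samples, the median span of detected off-boundary circles in the hippocampus ran from 4555 through 6677 to 8536 nt (lowest, median and highest of 18 samples). For exon-boundary circles it ran from 13224 through 13899 to 14268 nt, with no overlap. The ratio of the medians was 0.468 for hippocampus and 0.520 for frontal cortex, which is -1.10 and -0.94 on the log2 scale. It was below 1 in 18 of 18 samples of each tissue (two-sided permutation p = 1e-05, the smallest possible). The span of a circle is the same in every sample, and many circles were found in several samples. The 18 values of a tissue are therefore not independent, and this p is only descriptive.

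**Figure D2:**
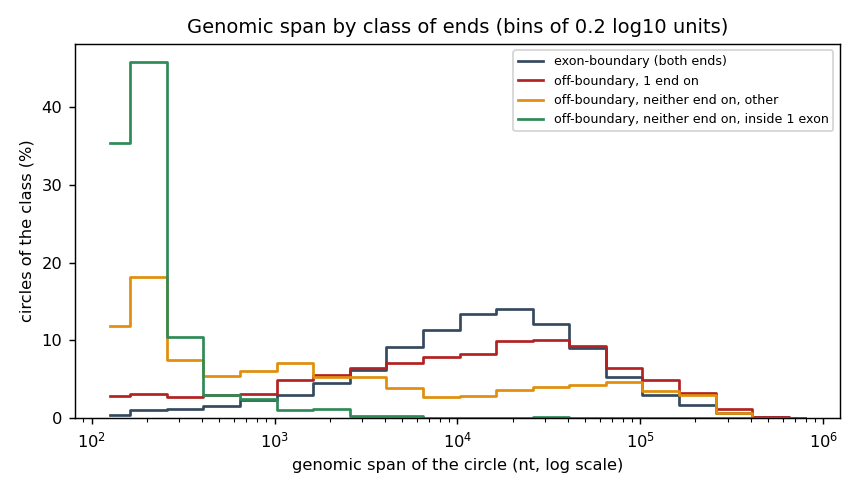
Share of circles (y axis, percent of the class) by genomic span (x axis, nt, log scale) for exon-boundary circles and the classes of off-boundary circles. Circles with neither end on a boundary inside one exon gather near their median of 176 nt, while those with 1 annotated end spread over the range of exon-boundary circles.

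The host genes were 3741 in number, of which 2271 had a single off-boundary circle and 65 had 10 or more. In 1473 hosts (39.4%) no exon-boundary circle was found, and these held 15903 of the off-boundary reads. Hosts of other types than protein-coding held 1123 off-boundary circles (13.6%), against 1.03% of exon-boundary circles. Without Snhg14 the share was 5.91%.

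Snhg14, a long RNA on chromosome 7 that hosts clusters of small nucleolar RNAs and runs antisense to Ube3a, had 675 off-boundary circles with 4631 reads. That was 6.81% of all off-boundary reads, against 32 exon-boundary circles with 412 reads in the same gene. Its off-boundary circles had a median span of 65136 nt, and 413 of them were found in 1 sample. The next hosts by number were Malat1, an abundant nuclear long noncoding RNA, with 34 circles, and Dab1, an adaptor of reelin signalling, with 30. They were followed by Lrrc7, which codes for the postsynaptic scaffold densin, with 25 and Lingo2 with 24. Malat1 had no exon-boundary circle. Lrrc7 had 338 off-boundary and 619 exon-boundary reads.

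By reads the first hosts after Snhg14 were Rims1 with 2290, Snhg11 with 1723, Ptms with 1551 and Gm2164 with 1403. Rims1 codes for a scaffold of the presynaptic active zone, Snhg11 is a small nucleolar RNA host gene expressed in neurons, and Ptms codes for parathymosin, a small acidic nuclear protein. Gm2164 is annotated as an antisense gene. In Rims1 exon-boundary circles held more reads, 4850, so that off-boundary circles were 32.1% of the total. In Ptms they were 99.7%, and in Snhg11 and Gm2164 no exon-boundary circle was found.

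In Rims1 and Snhg11 nearly all off-boundary reads came from 1 circle, whereas in Snhg14 the 10 leading circles of 675 held 22.5%. The Rims1 circle of 47656 nt (chr1:22346293-22393948, minus strand) had 2252 reads in 35 samples, and its 5′ end lay in an intron 3615 nt from a boundary. In the hippocampus it had 11 reads in the lowest sample, a median of 59 and 210 in the highest. Frontal cortex values were 0, 61 and 122. The single sample at 0 was frontal cortex ZT9 replicate 3, one of the shallow libraries.

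The Snhg11 circle of 660 nt (chr2:158382504-158383163, plus strand) had 1715 reads and was found in all 36 samples. Both ends lay in one exon outside the coding sequence, in a gene that GENCODE lists as protein-coding. The start lay 1565 nt from the nearest exon start and the end 1573 nt from the nearest exon end. It had 27, 52 and 126 reads (lowest, median, highest) across the hippocampus samples. In frontal cortex samples it had 24, 41 and 60. The ranges overlapped, and the log2 difference of hippocampus minus frontal cortex was 0.14 ± 0.12 (SE; edgeR adjusted p = 0.387), which did not pass.

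Cdc14b, a dual-specificity phosphatase, had a circle of 4866 nt (chr13:64243634-64248499, minus strand) in all 36 samples. Its 5′ end lay 143 nt from a boundary, inside an exon outside the coding sequence. The reads were 10, 31.5 and 75 in hippocampus samples (lowest, median, highest) and 17, 31 and 47 in frontal cortex samples, which overlapped. Off-boundary circles held 1315 reads in Cdc14b and exon-boundary circles 137.

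Zfp644, a zinc finger gene, had a circle of 20565 nt (chr5:106618071-106638635, minus strand) with 630 reads in 34 samples. Its 3′ end, the unannotated one, lay 101 nt from a boundary, and the stretch lies in 2 annotated genes. Its lowest, median and highest reads were 0, 16.5 and 66 over hippocampus samples and 0, 13.5 and 31 over frontal cortex samples. One sample of each tissue was at 0.

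Gm9762, a processed pseudogene, had 1 off-boundary circle of 374 nt (chr3:78966402-78966775, minus strand) in all 36 samples, with 617 reads. Hippocampus samples had 2, 17 and 44 reads (lowest, median, highest) and frontal cortex samples 5, 17 and 27, with the same median. A processed pseudogene is a copy of a spliced messenger RNA elsewhere in the genome, so reads of its parent gene can map to it, and this count is uncertain. The circle of the long noncoding RNA 6530403H02Rik (30589 nt, chr3:120769159-120799747, minus strand) was also found in all 36 samples, with 370 reads, from 4 to 22 per hippocampus sample and from 3 to 24 per frontal cortex sample.

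Malat1 had a circle of 192 nt (chr19:5801695-5801886, minus strand) within its exon, with 135 reads in 11 samples. It was at 0 in 10 hippocampus and 15 frontal cortex samples, and had from 5 to 28 reads in the 8 hippocampus samples where it was found. In the 3 frontal cortex samples it had from 4 to 13.

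Ptms had 20 off-boundary circles and 1 exon-boundary circle with 5 reads. Of the 20, 6 ended at the annotated boundary at 124914408 and differed only at the 5′ end. The circle of 297 nt (chr6:124914408-124914704) had 561 reads, and that of 303 nt (chr6:124914408-124914710) had 509. Their 5′ ends lay 9 and 3 nt inside an exon. The 552-nt circle, which begins farther upstream and 30 nt from a boundary, had 171 reads in 14 samples and was named after its values were seen.

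The 297-nt circle of Ptms was found in all 36 samples, with 5, 12.5 and 28 reads (lowest, median, highest) in hippocampus samples and 8, 15.5 and 63 in frontal cortex samples. The highest value came from frontal cortex ZT9 replicate 3, the shallowest library of that tissue, and the next highest in that tissue was 23. The ranges overlapped between the tissues, and the log2 difference was -0.56 ± 0.26 (SE; edgeR adjusted p = 0.107). Without hippocampus ZT13 replicate 1, frontal cortex ZT9 replicate 1 or frontal cortex ZT9 replicate 2 the adjusted p from edgeR was 0.0346, 0.0472 and 0.0399.

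In contrast, the 303-nt circle was found in 20 samples and missing in 16. In the frontal cortex it had 0 reads in all 3 replicates at ZT1, ZT13 and ZT17, 0, 0 and 16 reads at ZT5, 13, 21 and 65 at ZT9 and 23, 22 and 13 at ZT21. In the hippocampus it had 0, 0 and 54 reads at ZT1, 19, 15 and 17 at ZT5, 28, 23 and 0 at ZT9, 48, 37 and 14 at ZT13, 24, 22 and 15 at ZT17 and 0, 20 and 0 at ZT21. Where it was found it never had fewer than 13 reads.

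The 297-nt circle had reads in both sets of samples. In the 13 hippocampus samples where the 303-nt circle was found, the 297-nt circle had 5 to 28 reads, and in the 5 where it was not, 9 to 14. For frontal cortex samples the ranges were 8 to 63 and 8 to 23. Samples with and without the 303-nt circle overlapped in total circular reads, from 6754 to 73252 with it and from 18215 to 29951 without it in hippocampus samples.

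**Figure D3:**
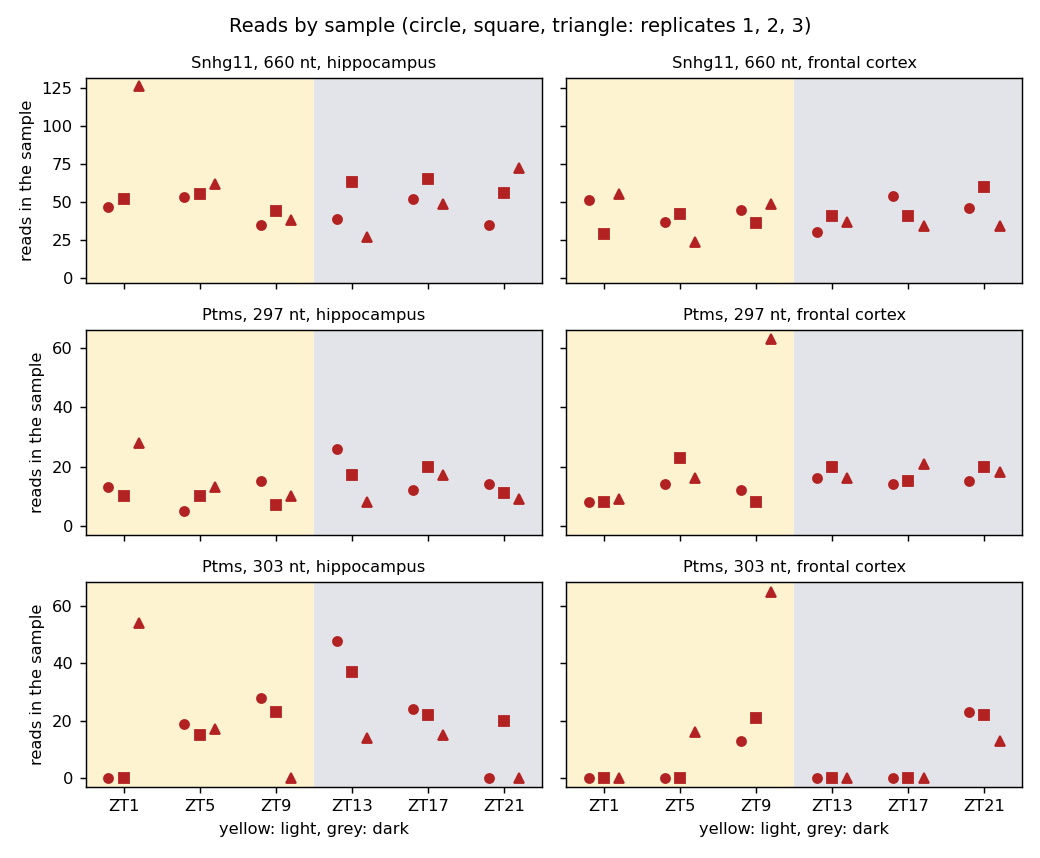
Reads per sample (y axis) of the Snhg11 circle of 660 nt and the Ptms circles of 297 and 303 nt by time point (x axis), with replicates 1, 2 and 3 as circles, squares and triangles. Snhg11 and the 297-nt Ptms circle have reads in all 36 samples, while the 303-nt circle is at 0 in 16 samples and between 13 and 65 reads in the others.

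Circles with many reads that were missing from many samples were counted in both classes. Among the 101 off-boundary circles with 100 reads or more, 32 (31.7%) were at 0 in 9 samples or more, against 246 of 1275 exon-boundary circles (19.3%). The 303-nt circle of Ptms and the 152-nt circle of Nrgn, which codes for the postsynaptic protein neurogranin, were among the 32.

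The question whether off-boundary circles made up a different share of circular reads in the 2 tissues was asked per sample. In the hippocampus the share was 9.05% ± 1.11 (SD, n = 18), from 7.99% through 8.88% to 12.7%. In the frontal cortex it was 8.73% ± 1.39, from 7.37% through 8.48% to 13.7%. The ranges overlapped, and the difference of 0.318 percentage points did not pass (two-sided permutation p = 0.472). Without frontal cortex ZT9 replicate 3 it was 0.609 points (permutation p = 0.0476).

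By number of circles, 14.8% ± 1.7 of the in-gene circles in a hippocampus sample were off-boundary and 13.9% ± 1.3 in a frontal cortex sample (SD, n = 18). The difference of 0.876 points did not pass either (two-sided permutation p = 0.0921). It passed without the off-boundary circles of Snhg14, at 1.03 points (permutation p = 0.0334), and without frontal cortex ZT9 replicate 3 (permutation p = 0.0350).

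Dark and light phases were compared within each tissue. In the hippocampus the share of reads was 8.94% ± 0.86 in the light and 9.16% ± 1.36 in the dark (SD, n = 9), a difference of 0.215 points (two-sided exact permutation p = 0.741). The direction turned to -0.228 points without ZT13 replicate 1, the sample at 12.7%. In the frontal cortex the share was 9.21% ± 1.76 in the light and 8.25% ± 0.67 in the dark, a difference of -0.964 points (exact permutation p = 0.104). Without ZT21 replicate 2 it was -1.12 points (exact permutation p = 0.0402). Over the 6 time points the permutation p was 0.285 for hippocampus and 0.290 for frontal cortex. It fell to 0.0331 without hippocampus ZT13 replicate 1 and to 0.0246 without frontal cortex ZT9 replicate 2.

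**Figure D4:**
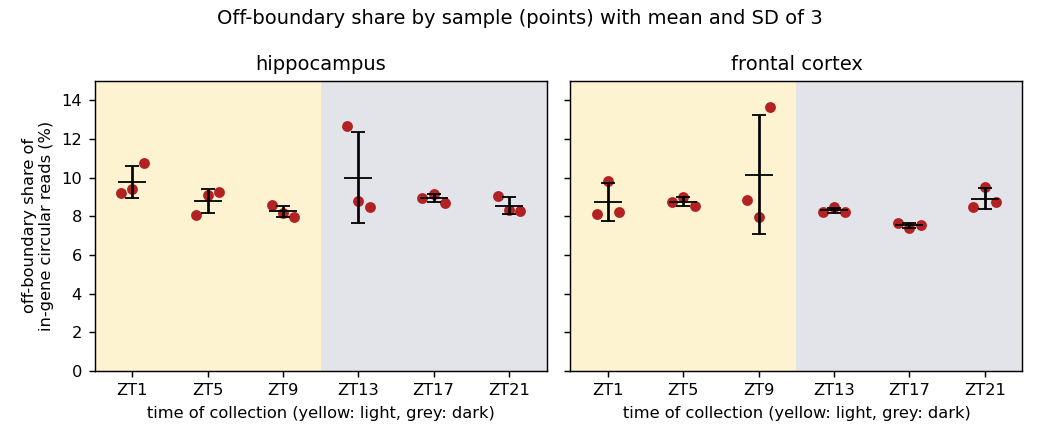
Off-boundary share of in-gene circular reads (y axis, percent) by time of collection (x axis). Points are samples and bars the mean and SD of 3 replicates. The samples at 12.7% and 13.7%, which lie above all the others, are the shallow libraries hippocampus ZT13 replicate 1 and frontal cortex ZT9 replicate 3.

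Ptms weighed heavily in these 2 libraries. It held 12.9% of the off-boundary reads in hippocampus ZT13 replicate 1, against 0.636 to 3.26% in the other dark hippocampus samples. In frontal cortex ZT9 replicate 3 it held 22.0%, against 0.508 to 3.33% in the other light samples. The part of depth in this was not tested.

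The share of circles was also set against total circular reads over the 18 samples of each tissue. In the hippocampus Pearson's r was 0.699 (permutation p = 0.0400) and Spearman's rho 0.408 (permutation p = 0.0961). With the 4 relations computed, the adjusted p of r was 0.0969 and that of rho 0.192. Without the 2 samples farthest from the median total, the deepest and the shallowest library, r was 0.628 (permutation p = 0.00883) and rho 0.556 (permutation p = 0.0271). Without the deepest library alone r was -0.129 (permutation p = 0.610), so the relation depends on which libraries are left out. In the frontal cortex r was -0.221 (permutation p = 0.380, adjusted p = 0.380) and rho -0.152 (permutation p = 0.546, adjusted p = 0.546), and r was -0.416 without 2 samples and -0.624 without frontal cortex ZT21 replicate 2 alone (permutation p = 0.00774). For the share of reads r was 0.167 and rho 0.261 in the hippocampus (permutation p = 0.339 and 0.295) and -0.515 and -0.490 in the frontal cortex (permutation p = 0.0484 and 0.0403, adjusted p = 0.0969 and 0.161). Without the 2 samples farthest from the median total these r were 0.422 (permutation p = 0.103) and -0.701 (permutation p = 0.00283), and rho was 0.397 (permutation p = 0.129) and -0.626 (permutation p = 0.0112).

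Single circles were tested with edgeR's quasi-likelihood test on all circles that 2 or 3 replicates of a time point shared and that passed its filter on low counts. Of the 8260 off-boundary circles, 47 had enough reads for the comparison of the tissues, and p-values were adjusted over all 710 circles tested. Between the tissues 30.6% of all circles tested were called at an adjusted p of 0.05, and 13 of the 47 off-boundary circles (27.7%), a share near that background. Of the 13, 9 were higher in the hippocampus and 4 were lower. Several of the 13 passed the filter within a single tissue only, the one where they were higher. In the hippocampus these were the circles of Gm49169, Ntng2 and Nrgn, the 1340-nt circle of Gm2164 and the 3889-nt circle of Arhgap5. In the frontal cortex they were the circles of Pcdh15, Gm28928 and Ctnna2. The high tissue thus helped to select these circles, and their p-values between the tissues are only descriptive. The median log2 difference over the 47 was -0.08, against 0.02 over all 710.

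Higher in the hippocampus was the circle of 784 nt in Gm49169, a long intergenic RNA (chr15:95736513-95737296, minus strand). It had 2, 13.5 and 38 reads in the hippocampus, while in the frontal cortex it was at 0 in 12 samples and at 3 or below in the others. In normalized reads (reads after TMM scaling, set to the mean library) it had 13.2 ± 4.5 against 0.90 ± 1.34 (SD, n = 18), and the groups did not overlap. The log2 difference was 4.47 ± 0.40 (SE; edgeR adjusted p = 2.72e-10). At 2 time points all frontal cortex replicates were at 0, and with 1 mean per tissue the difference was 3.78 ± 0.34 (adjusted p = 1.57e-12).

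Gm2164 had 2 circles that shared a 3′ end and were both higher in the hippocampus. That of 30083 nt (chr4:124556045-124586127, minus strand) had 36.4 ± 8.6 normalized reads against 13.1 ± 5.3 (SD, n = 18). Its ranges were 19.7 to 53.0 and 0 to 20.6 and met only at their edge, and the log2 difference was 1.46 ± 0.15 (SE; edgeR adjusted p = 9.21e-10). That of 1340 nt (chr4:124556045-124557384), named after its values were seen, differed by 1.66 ± 0.28 (SE; edgeR adjusted p = 2.09e-05).

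Higher in the frontal cortex was the Pcdh15 circle of 861 nt, within an intron (chr10:73282748-73283608, plus strand). Pcdh15 codes for a protocadherin known from the tip links of hair cells. The circle had 5.63 ± 2.93 normalized reads per hippocampus sample and 20.8 ± 7.5 per frontal cortex sample (SD, n = 18), with ranges of 0 to 11.3 and 8.14 to 35.6 that overlapped. The log2 difference was -1.95 ± 0.22 (SE; edgeR adjusted p = 5.97e-09). The circle of 5775 nt in the long intergenic RNA Gm28928 (chr1:124633365-124639139, minus strand) was lower in the hippocampus too, with a log2 difference of -1.90 ± 0.22 (SE; edgeR adjusted p = 1.55e-08). Both had neither end on a boundary, and the second was named after its values were seen.

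The circles of A230006K03Rik, a long intergenic RNA (8003 nt), and of Ctnna2, an alpha-catenin of neurons (7671 nt), were higher in the frontal cortex as well, with log2 differences of -0.81 ± 0.18 and -1.70 ± 0.39 (SE; edgeR adjusted p = 9.80e-04 and 0.00119). Ntng2, a netrin-like protein anchored to axons, had a circle of 21301 nt that was higher in the hippocampus, at 0.67 ± 0.20 (SE; edgeR adjusted p = 0.0112). Without the filter on low counts, when far more circles were tested, this call was lost (edgeR adjusted p = 0.0692). The 3889-nt circle of Arhgap5, a GTPase-activating protein, differed by 0.87 ± 0.30 (SE; edgeR adjusted p = 0.0238). It did not pass without hippocampus ZT9 replicate 3 (edgeR adjusted p = 0.0508) or hippocampus ZT13 replicate 2 (0.0776), nor under a replicate block (0.0718). The circle of 26558 nt in Arhgap5, which shares its 5′ end, and that of 2392 nt in Zranb1, a deubiquitinase, had log2 differences of 0.53 ± 0.21 and 0.52 ± 0.20 (SE; edgeR adjusted p = 0.0488 and 0.0424). Leaving out any one of 25 libraries for Arhgap5 and of 20 for Zranb1 ended the call, with adjusted p from edgeR up to 0.140 and 0.0897. The unannotated 5′ end of both Arhgap5 circles lay 2 nt from a boundary. Apart from A230006K03Rik, the circles of this paragraph were named after their values were seen.

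**Figure D5:**
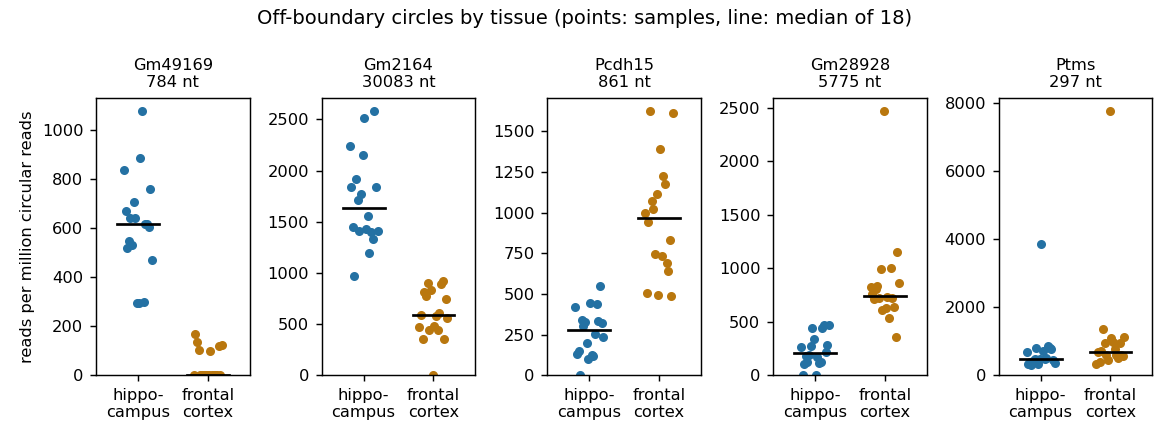
Reads scaled to 1e+06 circular reads of the sample (y axis) of 5 off-boundary circles in hippocampus and frontal cortex. Points are samples and lines the medians of 18. The Gm49169 and Gm2164 circles are higher in the hippocampus and the Pcdh15 and Gm28928 circles in the frontal cortex, whereas the 297-nt Ptms circle overlaps, with its highest point in each tissue from a shallow library.

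The fitted size has no clear meaning for a call where every replicate of a time point was at 0. Among the 13 calls this holds for the Gm49169 circle, whose size under both fits is given above. It also holds for the 303-nt circle of Ptms and the Nrgn circle. The 303-nt circle of Ptms was at 0 in every replicate of 3 frontal cortex time points, and the test averages the logs of time points. Its log2 difference was 3.41 ± 0.89 (SE; edgeR adjusted p = 0.00437). It was 0.68 ± 0.58 with 1 mean per tissue (SE; edgeR adjusted p = 0.400), an alternative chosen after the data were seen. The Nrgn circle of 152 nt (chr9:37552537-37552688, minus strand), named after its values were seen, was at 0 in all 18 frontal cortex samples. It had 7 to 44 reads in 8 hippocampus samples and 0 in the other 10, and no fold is given, because counts of 1 are not listed. The call was lost without any one of 4 hippocampus libraries, ZT1 replicate 3, ZT5 replicate 2, ZT17 replicate 1 and ZT21 replicate 2 (edgeR adjusted p = 1.00), and with DESeq2 (adjusted p = 0.236). In the Ptms circle the call was lost without hippocampus ZT1 replicate 3 or ZT21 replicate 2 (edgeR adjusted p = 1.00).

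Between dark and light, 0% of all circles tested were called in the hippocampus, with 37 off-boundary circles among the 582 tested, and 0% in the frontal cortex, with 36 among 518. At an unadjusted p under 0.05 from edgeR there were 3 and 1 off-boundary circles, against 28 of all 582 and 16 of all 518 circles tested. DESeq2 called 0 off-boundary circles in both tissues. The medians of the log2 differences were -0.05 over the 37 and -0.03 over the 36, against -0.02 and 0.02 over all circles tested.

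Over the 6 time points 0% of all circles tested were called in the hippocampus, and DESeq2 called 0 off-boundary circles. There 2 of 37 off-boundary circles had an unadjusted p under 0.05 from edgeR, against 19 of all 582 circles tested. In the frontal cortex 0.193% were called, which was 1 circle, the 303-nt circle of Ptms (edgeR adjusted p = 0.0334). Its reads in every sample stand above, with 3 time points at 0 throughout. DESeq2 gave an adjusted p of 0.998 for it, and without frontal cortex ZT21 replicate 2 edgeR gave 0.0510.

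The host genes were also grouped by lists of neuronal and other functions, chosen with earlier results of these data known, and the counts are set beside the 28.1% of circles and 8.86% of reads that were off-boundary over all in-gene circles. In genes of the synaptic vesicle and active zone, 105 circles were off-boundary and 239 exon-boundary, with 17.1% of the reads off-boundary, led by Rims1, Rims2 and Erc2. Rims1 alone held 2290 of the 3047 off-boundary reads, and without it the share was 7.12%, below that of all in-gene circles. Rims2 had 243 and Erc2 233 off-boundary reads, both scaffolds of the active zone. In genes of postsynaptic scaffolds and receptors, 165 circles were off-boundary and 262 exon-boundary, with 9.54% of the reads off-boundary. They were led by Dlg2, a scaffold of the PSD-95 family, with 392 reads, Lrrc7 and Nrgn, and without Dlg2 the share was 7.23%. Leaving out the leading host of a list was an alternative chosen after the data were seen, as was leaving out its exon-boundary circle with the most reads.

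Genes of calcium signalling had 73 off-boundary circles with 7.59% of the reads, and 13.9% without the leading exon-boundary circle, in Slc8a1. Hosts among them were Atp2b1, a plasma membrane calcium pump, with 177 reads and Ncald, a neuronal calcium sensor, with 92. Cytoskeleton and microtubule genes had 146 off-boundary against 105 exon-boundary circles, and 33.5% of the reads. Kif1b, a kinesin, had 152 off-boundary reads, Dync1h1, the heavy chain of dynein, 119 and Sptan1, a spectrin, 80. The median span was 421 nt in this list.

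Genes of energy metabolism and ion pumps had 34 off-boundary and 6 exon-boundary circles, with 83.8% of reads off-boundary. Hosts among them were Atp1b1, a subunit of the sodium pump, with 42 reads and the glycolytic gene Pkm with 33. Of the 34 circles, 2 were shared by replicates of a time point. RNA binding and splicing genes had 81 off-boundary circles with 8.10% of the reads, led by the splicing factors Rbfox1 with 232, Qk with 85 and Khdrbs3 with 58. The share was 5.28% without Rbfox1 and 11.4% without the leading exon-boundary circle, in Hnrnpu.

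In smaller lists, genes of ribosomal proteins and translation factors had 15 off-boundary circles with 63 reads (Eef1a2, Eif3a, Eif4g3), and heat shock and chaperone genes 17 with 90 reads (Canx, Hsp90b1, Hsph1). Circadian clock genes had 18 with 146 reads, of which 95 were in Hlf, a clock-controlled transcription factor, 25 in Npas2 and 9 in Rora. Myelin genes had 3 with 7 reads, in Mobp and Mbp. The long noncoding RNAs had 747 off-boundary and 53 exon-boundary circles, mostly in Snhg14, with 11.2% of the reads off-boundary. A single exon-boundary circle, assigned to C230004F18Rik, held 53168 reads, and without it the share was 75.5%. In the prothymosin family the circles of Ptms were the only ones.

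Hosts were also counted among cell type markers, in lists of unequal size. Of 20 neuron markers 17 had an off-boundary circle, with 2111 reads in all, led by Snhg11, which held 1723 of them, Nrgn and the synaptic vesicle protein Syt1. Of 15 astrocyte markers 10 had one, with 99 reads in all, with Slc1a2 and Apoe among the hosts, and none of their 27 circles was shared by replicates of a time point. Of 15 oligodendrocyte markers 3 had one, with 92 reads in all, of which 85 were in Qk. Of 10 endothelial markers 4 had one, with 11 reads, and of 12 microglia markers none had an off-boundary or an exon-boundary circle. Exon-boundary circles were found in 9 neuron, 2 astrocyte, 2 oligodendrocyte and 2 endothelial markers. Off-boundary circles were 62.5% of in-gene circles in the neuron, 81.8% in the astrocyte, 42.9% in the oligodendrocyte and 62.5% in the endothelial list. All lay above the 28.1% over all in-gene circles, so this was not particular to neuron markers.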

How the data were processed

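Circular reads of 36 hippocampus and frontal cortex samples were analysed. Per the labels and the study's methods, the authors mapped reads to GRCm38 with BWA, called circRNAs with CIRI2 at default settings and deposited raw counts of junction reads. The smallest count above 0 is 2, so a listed 0 can be 1 read. Among the hippocampus counts, 1 column matched no sample and was not used.

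Circles were placed by their ends in GENCODE M21. Shares, reads, support and spans were compared over samples by permutation tests with 100000 resamples (exact for 9 against 9). Single circles were compared by the quasi-likelihood test of edgeR 4.0.16 (R 4.3.3; TMM; filterByExpr; Benjamini-Hochberg over all circles tested; 12 groups for the tissues and 6 within a tissue), first tested on simulated data. The SE given with a log2 difference from edgeR is an approximation, the size of the difference divided by the square root of the test's F. DESeq2 1.42.0, other filters, a replicate block and leaving out each library were alternatives. Python 3.11.15, numpy 2.4.6, pandas 2.3.3, scipy 1.17.1 and matplotlib 3.10.9 were used. The labels do not say whether replicates, or both tissues of a number, came from separate mice, so p-values measure the spread between these samples.

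The rule for names took the 10 circles with the most reads, the 5 in the most samples, the leading Ptms circle, up to 3 called per comparison, 3 per class of ends, the 5 hosts with the most circles or reads and up to 3 hosts per list. Members and lists were chosen with earlier results of these data known. Some hosts that this rule names are not reported here.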

Additional observations from a re-analysis of the deposited data

Results flagged for a closer look

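Several measures were screened in the 9 samples of each phase and tissue, which gave 28 sets of 9 values. In each set the highest and the lowest value were compared with the others. A value stood apart where its gap to the nearest, as a share of the whole range, was above Dixon's critical value at 95%. Chance flags about 1 in 20 independent sets, but these sets share samples and are not independent. There were 11 such values, and they came from 3 libraries, the deepest of the hippocampus and the shallowest of each tissue. Hippocampus ZT13 replicate 1 had an off-boundary share of reads of 12.7%, against 8.26 to 9.14% in the other dark samples, and of circles of 17.3%, against 13.6 to 15.1%. Its reads per detected circle differed between the classes by -1.44, against -2.95 to -2.31, and its replicate support by -35.2 percentage points, against -29.3 to -23.5. The Ptms share of its off-boundary reads was 12.9%, against 0.636 to 3.26%.

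Frontal cortex ZT9 replicate 3 had an off-boundary share of reads of 13.7%, against 7.98 to 9.84% in the other light samples. Its reads per detected circle differed by -1.06 between the classes, against -3.04 to -2.06, and Ptms held 22.0% of its off-boundary reads, against 0.508 to 3.33%. In hippocampus ZT1 replicate 3, the deepest library, the share of circles was 20.3%, against 13.1 to 16.1%. Its reads per detected circle differed by -4.66, against -3.14 to -2.45, and its support at 2 reads by -7.77 percentage points, against -24.4 to -16.2. The dark minus light difference of the share of reads differed between the tissues by 1.18 percentage points (two-sided permutation p = 0.178 over 20000 resamples), which was not flagged.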

How the results depend on the processing

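The differences in reads per circle, replicate support, support at 2 reads and span kept their sign and passed under every alternative run, single libraries left out included. For reads per circle and span the p is only descriptive, since samples share circles. Without single libraries, the tissue difference of the share of reads was 0.104 to 0.609 percentage points, that of the share of circles 0.552 to 1.04, and 1.03 without Snhg14, an alternative added after the data were seen. Dark minus light was -0.228 (without ZT13 replicate 1) to 0.439 points in the hippocampus and -1.12 to -0.407 in the frontal cortex, and the p over time points was 0.0331 to 0.476 and 0.0246 to 0.492. The r with total reads was -0.129 to 0.920 in the hippocampus, reversed without ZT1 replicate 3, and -0.624 to 0.0682 in the frontal cortex, reversed without ZT9 replicate 3. Without the filter on low counts, 31 of 799 off-boundary circles tested were called between the tissues, 10 of them among the 13. The main fit called 13 of 47. Between the phases of the hippocampus it was 1 of 631, over its time points 5 of 631 and over those of the frontal cortex 3 of 509. DESeq2 called 0 off-boundary circles over the frontal cortex time points. The share called over all circles is not given for the unfiltered setting, the replicate block or fits without a library. These counts therefore cannot be set against a background and show nothing particular to off-boundary circles. Leaving out a library gave 13 to 19 calls between the tissues and 0 to 1 over frontal cortex time points, 0 without ZT21 replicate 2. The log2 tissue difference of Gm9762 was -0.12 to 0.029, above 0 also without frontal cortex ZT13 replicate 3 (0.0040), and that of the 552-nt Ptms circle -0.59 to 1.11, below 0 also without hippocampus ZT13 replicate 1 (-0.0077) and ZT17 replicate 2 (-0.52). In each reversal the cause was not tested. Samples of one number did not deviate together (mean r -0.0156 over 18 pairs between the tissues, -0.0034 and -0.0107 over 45 pairs within hippocampus and frontal cortex). With a replicate block, 10 off-boundary circles were called between the tissues, all among the 13, and 1 over frontal cortex time points (Ptms, 303 nt, adjusted p from edgeR = 0.00376). Zranb1 and both Arhgap5 circles lost their call under the block, and no other named circle's call changed. Counts of 2 to 4 reads limit most off-boundary circles, of which 47 of 8260 could be tested between the tissues.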
